A study of Mus musculus with 2 samples.

Results

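The genes described here are 10 genes of the transforming growth factor beta (TGF-beta) and activin axis: the ligand genes Tgfb1, Tgfb2, Tgfb3 and Inhba, the receptor genes Tgfbr1 and Tgfbr2, the activator genes Thbs1 and Itgb6, the inhibitor gene Fst, and the target gene Ctgf, which current annotation names Ccn2. They were chosen by name, with earlier results of these data known. All 10 were found among the 24417 genes listed in at least 1 of the deposited count tables. The samples were single-cell suspensions of whole lung from mice given silica, a mineral dust that injures and scars the lung, into the trachea at 400 mg/kg. The CCR2KO group was CCR2-/- mice, which lack the chemokine receptor that monocytes use to leave the bone marrow, and the WT group was wild-type mice. Both groups were C57BL/6 and both received silica, and lungs of days 3, 7 and 21 were taken in both. The labels state no age or sex, and the series analysed here holds no lung without silica.

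Suspensions carried hashtags, antibodies with a DNA barcode, and those of a genotype were pooled on a BD Rhapsody microwell cartridge. There was 1 library per genotype, so genotype and cartridge cannot be told apart in any comparison. The CCR2KO library held 8 hashtags (tags) and the WT library 9. The sources used here do not say which day a tag stands for, or whether a tag is 1 animal. The p-values therefore measure the spread between tagged suspensions, which may be technical, and tags are set in order of number only as a description. The values are taken here as reads rather than molecules, because the median entry above 0 was 11 reads in CCR2KO and 9 reads in WT. Levels are given as CPM, the reads of a gene scaled to the same total in every tag.

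TGF-beta ligands are secreted in a latent complex that must be opened before the ligand can bind. Thrombospondin 1, the product of Thbs1, and integrin alpha-v beta-6, whose beta chain is encoded by Itgb6, are known to open it. The active ligand binds TGFBR2, which phosphorylates TGFBR1, and TGFBR1 in turn activates SMAD2 and SMAD3. Activin A is a dimer of the Inhba product that signals through related receptors to the same SMAD proteins, and follistatin, the product of Fst, binds and blocks it. In scarring lung, TGF-beta is known for driving fibroblasts to make matrix, and Ctgf, which encodes a matrix-associated protein, is among the genes it induces.

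Positions are of the GRCm38 build, in the GENCODE vM21 annotation. The ligand genes are Tgfb1 at chr7:25687002-25705077 on the plus strand, Tgfb2 at chr1:186622792-186705989 on the minus strand, Tgfb3 at chr12:86056745-86079041 on the minus strand and Inhba at chr13:16011851-16031621 on the plus strand. The receptor genes are Tgfbr1 at chr4:47353222-47414931 on the plus strand and Tgfbr2 at chr9:116084293-116175360 on the minus strand. Thbs1 is at chr2:118111876-118127133 on the plus strand, Itgb6 at chr2:60598292-60722643 on the minus strand, Fst at chr13:114452290-114458951 on the minus strand and Ctgf at chr10:24595442-24598683 on the plus strand. Reads were counted per gene, so no value distinguishes exons or transcripts.

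Cells were grouped by clustering, with the 10 genes and Ccr2 left out of the genes used for it. Clusters were named by likeness to a cell type from marker lists, and 23 classes had enough cells in enough tags to be tested. The naming did not leave these genes out. Ccr2 was among the classical monocyte markers, and Inhba was among the leading genes of the scar-type macrophage-like cluster. After filtering, 14838 CCR2KO cells and 16796 WT cells were kept, and the cells of a tag held between 53900640 and 83416887 reads in CCR2KO and between 60395566 and 91391724 reads in WT. Ccr2, the deleted gene, had 1.46 to 4.44 CPM over the CCR2KO tags and 54.0 to 97.4 CPM over the WT tags. In the classical monocyte-like class it had a median of 54.7 CPM over CCR2KO tags and of 598 CPM over WT tags. The classical monocyte-like class held 1.23% of CCR2KO cells and 6.88% of WT cells, and the scar-type macrophage-like class, named from markers such as Gpnmb and Spp1, held 1.30% of CCR2KO cells and 5.98% of WT cells. With each cell thinned to 5000 reads, the median number of detected genes was 668 in CCR2KO and 813 in WT, and the medians of single tags did not overlap between the genotypes, at 631 to 702 in CCR2KO and 733 to 930 in WT. A total of 270 of the kept cells' labels occurred in both libraries.

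Summed over all cells of a tag, 3 of the 10 genes were higher in CCR2KO and 1 was lower by edgeR's quasi-likelihood test at an adjusted p of 0.05. Among all 19204 genes tested, 4.94% were called higher and 6.49% lower. Tgfb2, Tgfbr2 and Ctgf rose and Tgfb1 fell. The median log2 change was 0.18 over the 10 genes and 0.01 over all genes. A sum over all cells moves with the mixture of cells as well as with the RNA in each cell, and fewer cells of a type and less RNA per cell cannot be told apart in it.

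Among the ligands, Tgfb1, the isoform most studied in fibrosis, had 78.9, 96.5, 77.3, 84.7, 80.1, 78.4, 50.3 and 55.6 CPM in CCR2KO tags 1 to 8. In WT tags 1 to 9 it had 111, 122.5, 131, 134, 124, 116, 88.2, 85.5 and 106 CPM. A single CCR2KO tag, at 96.5 CPM, lay above the lowest WT tags. The log2 change of Tgfb1 was -0.59 (SE 0.12), with an adjusted p of 0.00340 by edgeR. Tgfb2 averaged 21.4 ± 2.74 CPM in CCR2KO and 15.02 ± 3.61 CPM in WT (SD, n = 8 and 9 tags). Its tags did not overlap, with a lowest, median and highest of 18.99, 20.2 and 26.7 CPM in CCR2KO and of 7.55, 16.2 and 18.8 CPM in WT. The log2 change of Tgfb2 was 0.51 (SE 0.15), with an adjusted p of 0.0270 by edgeR, and it no longer passed when a gene's reads were limited to 10 per cell (0.32, adjusted p = 0.121) or when CCR2KO tag 4, CCR2KO tag 7 or WT tag 2 was left out (0.46, 0.49 and 0.47).

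Neither of the other ligand genes passed the test over all cells. Tgfb3 averaged 30.7 ± 8.42 CPM in CCR2KO and 29.2 ± 5.71 CPM in WT. Inhba, which encodes the subunit of activin A, averaged 46.7 ± 24.7 CPM in CCR2KO and 70.7 ± 39.4 CPM in WT, with a log2 change of -0.60 (SE 0.39) and an adjusted p of 0.380 by edgeR. Its tags spread widely in both genotypes, between 14.4 and 90.6 CPM in CCR2KO and between 17.8 and 135 CPM in WT.

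Among the receptors, Tgfbr2, which encodes the ligand-binding chain, averaged 244 ± 15.2 CPM in CCR2KO and 187 ± 26.5 CPM in WT. The lowest, median and highest tags were 227, 238 and 266 CPM in CCR2KO and 142, 184 and 221 CPM in WT, with no overlap. Its log2 change was 0.39 (SE 0.08), with an adjusted p of 0.00258 by edgeR. Tag ranges of CCR2KO lay wholly above those of WT for 0.635% of all genes tested, and among the 10 genes for Tgfb2 and Tgfbr2. Tgfbr1, the chain that passes the signal on, averaged 38.7 ± 6.58 CPM in CCR2KO and 36.8 ± 7.77 CPM in WT and did not pass.

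The activators did not pass over all cells. Thbs1 averaged 526.3 ± 81.5 CPM in CCR2KO and 551 ± 146 CPM in WT, a log2 change of -0.07 (SE 0.14). Itgb6 averaged 12.2 ± 3.48 CPM in CCR2KO and 10.0 ± 2.78 CPM in WT. The inhibitor gene Fst averaged 82.3 ± 48.8 CPM in CCR2KO and 47.7 ± 24.6 CPM in WT, a log2 change of 0.79 (SE 0.36) with an adjusted p of 0.184 by edgeR. The target gene Ctgf averaged 111 ± 17.4 CPM in CCR2KO and 69.4 ± 19.9 CPM in WT. Its CCR2KO tags ran between 94.1 and 139 CPM with a median of 103 CPM, and its WT tags between 45.6 and 98.3 CPM with a median of 58.9 CPM. WT tags 7 and 9 reached the CCR2KO range, and the log2 change was 0.68 (SE 0.15), with an adjusted p of 0.00548 by edgeR.

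**Figure D1:**
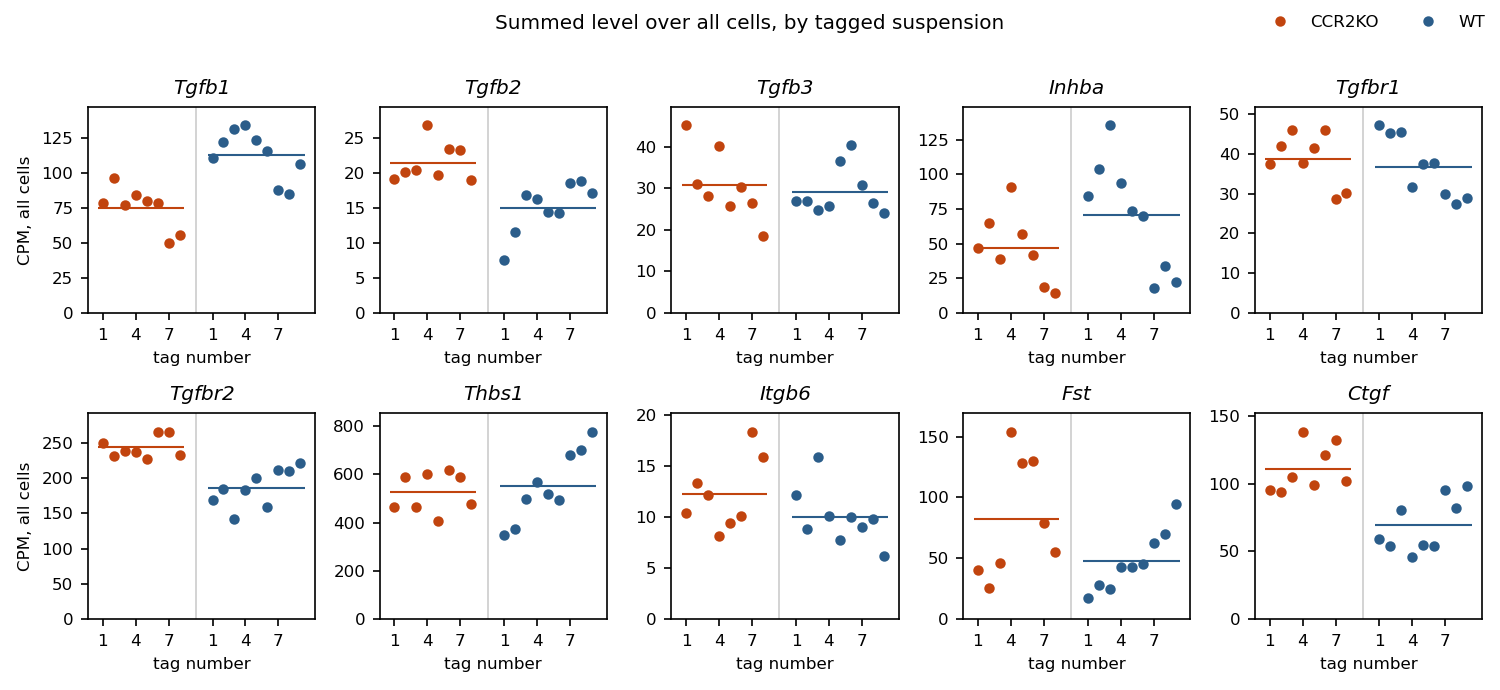
CPM of each of the 10 genes summed over all kept cells of a tag, with CCR2KO tags left of WT tags in each panel and tags in order of number; points are single tags and lines the mean of a genotype. Tgfb2 and Tgfbr2 do not overlap between the genotypes, and, in proportion to their mean, Inhba and Fst vary more among tags of a genotype than the other genes do.

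The promoters of the 3 genes that passed over all cells and that were found among the RefSeq promoters (GRCm38.p6) are shown, since these genes moved in different directions in the same sums. Each is printed on its gene's strand, from 250 bases before to 50 bases after the annotated start. The windows are chr7:25686752-25687051 on the plus strand for Tgfb1, chr1:186705940-186706239 on the minus strand for Tgfb2 and chr9:116175314-116175613 on the minus strand for Tgfbr2. Capitals mark any match, on either strand, to the SMAD half-site CAGAC, the AP-1 site TGANTCA, the TEAD site GGAATG or the GC box GGGCGG.
Tgfb1: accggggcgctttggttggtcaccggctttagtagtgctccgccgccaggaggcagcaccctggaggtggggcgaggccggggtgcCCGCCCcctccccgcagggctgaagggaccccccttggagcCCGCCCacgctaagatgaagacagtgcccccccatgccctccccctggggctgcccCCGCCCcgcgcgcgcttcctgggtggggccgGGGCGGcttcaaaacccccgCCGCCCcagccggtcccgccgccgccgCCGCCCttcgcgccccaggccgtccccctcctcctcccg
Tgfb2: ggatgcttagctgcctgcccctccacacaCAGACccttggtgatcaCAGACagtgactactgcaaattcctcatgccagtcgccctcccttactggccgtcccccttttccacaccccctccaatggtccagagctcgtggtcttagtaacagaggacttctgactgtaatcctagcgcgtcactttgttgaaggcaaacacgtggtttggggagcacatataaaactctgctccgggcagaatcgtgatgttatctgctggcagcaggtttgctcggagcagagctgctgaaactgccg
Tgfbr2: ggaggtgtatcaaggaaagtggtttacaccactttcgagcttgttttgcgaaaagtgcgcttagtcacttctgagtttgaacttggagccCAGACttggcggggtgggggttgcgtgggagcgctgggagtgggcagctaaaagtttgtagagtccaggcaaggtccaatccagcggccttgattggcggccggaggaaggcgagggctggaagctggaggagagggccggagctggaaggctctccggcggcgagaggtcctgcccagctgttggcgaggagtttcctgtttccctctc

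The Tgfb1 window holds 6 matches to the GC box and is 77% G or C. The Tgfb2 window holds 2 matches to the SMAD half-site at 54.3% G or C, and the Tgfbr2 window holds 1 at 59% G or C. Over all 32851 RefSeq promoters, 49.6% hold the SMAD half-site, 35.7% the GC box, 14.7% the TEAD site and 7.81% the AP-1 site, so a match is common and is given as a description of the letters. RefSeq promoters were matched for 6 of the 10 genes, with 8 starts in all. Ctgf, Fst, Tgfb3 and Thbs1 had no match, and Ctgf was looked up by that symbol, not as Ccn2.

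The 10 genes fell into distinct cellular patterns among the 23 classes. These patterns are described over the 17 tags (15 or 16 where tags had too few cells of the class). No test was run, since cells were grouped by their own RNA. Ligands came from different cells. Tgfb1 was highest in the classical monocyte-like class at 357 ± 90.3 CPM (SD, n = 17 tags), followed by the scar-type macrophage-like class at 263 ± 99.0 CPM, an unnamed cluster led by Icos, Il7r and Thy1 at 250 ± 196 CPM and the natural killer cell-like class at 220 ± 107 CPM. The last 3 of these did not differ beyond their spread. Tgfb2 was highest in smooth muscle cell-like cells at 163 ± 83.2 CPM and pericyte-like cells at 121 ± 102 CPM, whose spreads overlapped. The mesothelial cell-like class, with 88 CCR2KO cells and 3 WT cells, was outside the 23 classes. It held 6.45% of Tgfb2 reads in CCR2KO and 0.113% in WT, and its part in the Tgfb2 change over all cells was not tested. Tgfb3 averaged 122 ± 43.8 CPM in the adventitial fibroblast-like class and 120 ± 58.6 CPM in the smooth muscle cell-like class, which could not be ordered. In the mature dendritic cell-like class (n = 15 tags), where both were lowest, Tgfb2 averaged 0.149 CPM and Tgfb3 averaged 0.365 CPM.

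Inhba was the ligand gene with the most myeloid pattern. It averaged 525 ± 338 CPM in the scar-type macrophage-like class and 463 ± 402 CPM in the neutrophil-like class, and the class next in order, classical monocyte-like, averaged 77.2 ± 102 CPM. In the activated fibroblast-like class it averaged 67.9 ± 51.5 CPM. Fst, its inhibitor, was at its highest in that fibroblast class, at 373 ± 189 CPM, and averaged 112 ± 45.7 CPM in the adventitial fibroblast-like class and 111 ± 73.2 CPM in the pericyte-like class. Fst thus had its highest level in fibroblasts, while the highest Inhba levels were in macrophages and neutrophils.

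The receptor genes differed from each other in pattern. Tgfbr2 was highest in the alveolar fibroblast-like class at 675 ± 97.2 CPM, above the adventitial fibroblast-like class at 496 ± 133 CPM, and stood at 418 ± 98.0 CPM in lymphatic endothelium-like cells and 418 ± 76.9 CPM in activated fibroblast-like cells. Tgfbr1 was highest in the interstitial macrophage-like class at 111 ± 56.9 CPM and the neutrophil-like class at 104 ± 65.8 CPM, and its spread over tags left the order of the leading classes undecided.

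The activator genes were also apart. Itgb6 averaged 268 ± 148 CPM in alveolar type 1 cell-like cells and 25.1 ± 20.8 CPM in alveolar type 2 cell-like cells, and at most 13.2 CPM in any other class. Thbs1 averaged 2603 ± 1206 CPM in classical monocyte-like cells, 2331 ± 1360.4 CPM in neutrophil-like cells, 1586 ± 601 CPM in smooth muscle cell-like cells and 1120.2 ± 1116 CPM in scar-type macrophage-like cells. The alveolar and activated fibroblast-like classes followed at 1092 ± 471 and 1073 ± 345 CPM. Ctgf averaged 1139.8 ± 427 CPM in smooth muscle cell-like cells, above the adventitial fibroblast-like class at 315 ± 135 CPM.

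The classes that held most reads of a gene differed between the libraries where monocytes and macrophages were involved. Of all Inhba reads, the scar-type macrophage-like class held 16.1% in CCR2KO and 64.4% in WT. The activated fibroblast-like class held 34.0% of Inhba reads in CCR2KO and 8.75% in WT, and the neutrophil-like class held 32.1% in CCR2KO and 6.41% in WT. Of Thbs1 reads, activated fibroblast-like cells held 34.4% in CCR2KO and 17.4% in WT. The classical monocyte-like class was not among the 5 leading classes for Thbs1 in CCR2KO and held 27.2% of its reads in WT. For Tgfb1, the alveolar macrophage-like class held the most reads in both libraries, 22.2% in CCR2KO and 16.0% in WT. The WT library also had 15.7% of its Tgfb1 reads in classical monocyte-like cells and 15.2% in scar-type macrophage-like cells. Fst remained a gene of activated fibroblast-like cells, with 83.1% of reads in CCR2KO and 74.3% in WT, and Itgb6 of alveolar type 1 cell-like cells, with 64.3% in CCR2KO and 66.7% in WT.

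**Figure D2:**
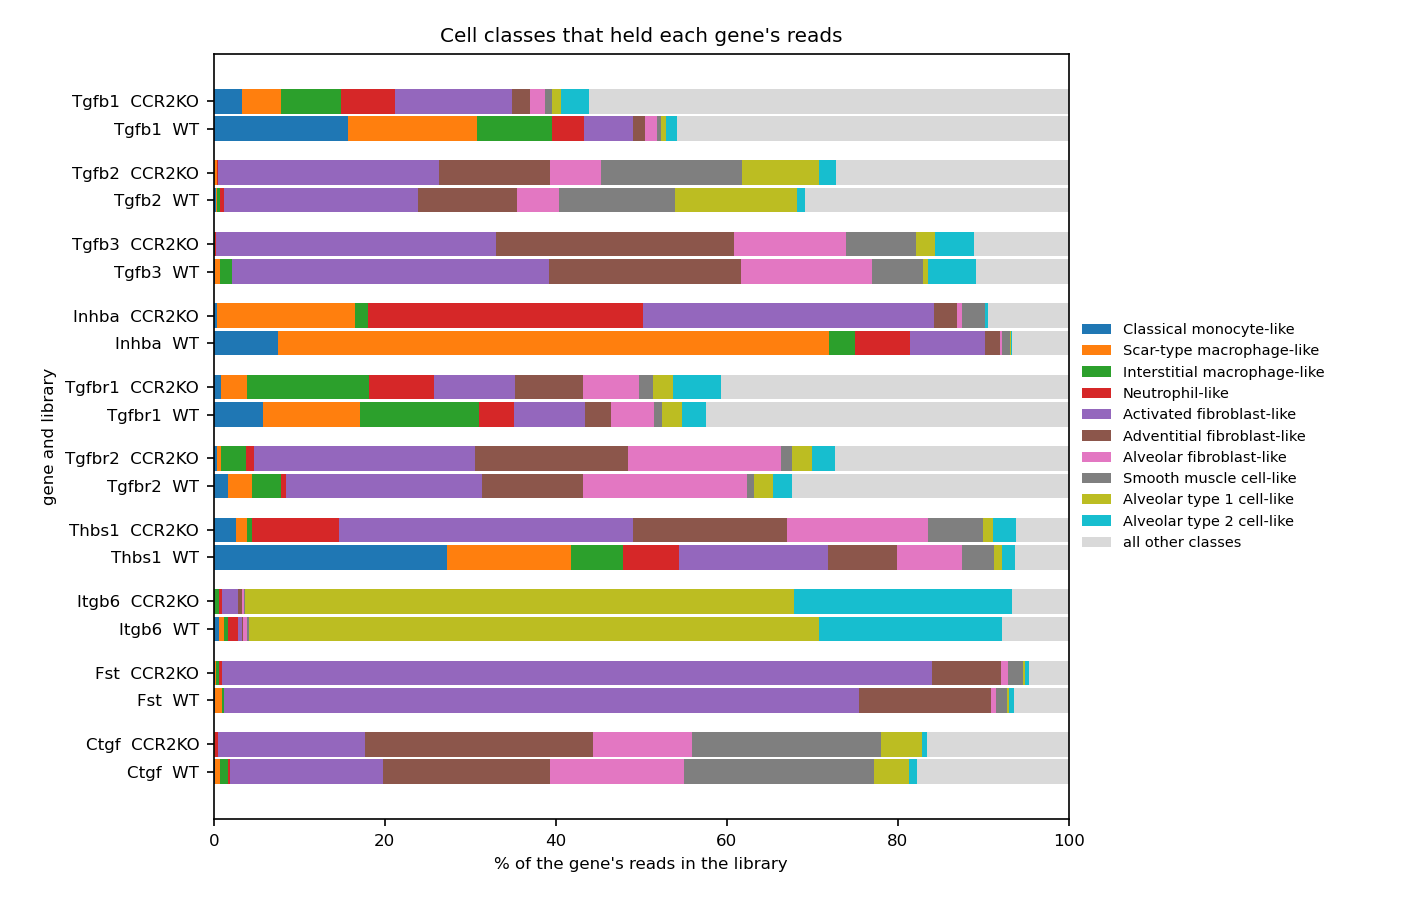
Share of each gene's reads held by each class, in percent, with the CCR2KO library above the WT library for every gene. The scar-type macrophage-like share of Inhba is 16.1% in CCR2KO and 64.4% in WT.

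To describe how much the mixture of cells carried, the pooled WT level of each class was weighted by the share of reads that class had in CCR2KO. For Tgfb1, the pooled level was 76.3 CPM in CCR2KO and 114 CPM in WT, and WT class levels at CCR2KO class shares gave 83.5 CPM. For Inhba, the pooled level was 48.6 CPM in CCR2KO and 72.0 CPM in WT, and the same weighting gave 32.7 CPM. For Tgfbr2 it was 244 CPM in CCR2KO and 186 CPM in WT, with 207 CPM after weighting, for Tgfb2 21.5 CPM in CCR2KO and 14.9 CPM in WT, with 18.6 CPM after weighting, and for Ctgf 111 CPM in CCR2KO and 67.3 CPM in WT, with 79.9 CPM after weighting. For Thbs1 the pooled levels were close, 528 CPM in CCR2KO and 544 CPM in WT, and weighting gave 413 CPM. The weighted values of Tgfb1 and Tgfb2 were nearer to the CCR2KO level, those of Tgfbr2 and Ctgf were nearer to the WT level, and those of Inhba and Thbs1 lay below both. The same weighting gave 38.5 CPM for Tgfb3 and 14.9 CPM for Itgb6, above both genotypes. It gave 62.6 CPM for Fst, between them, and 33.4 CPM for Tgfbr1, below both. In reverse, CCR2KO class levels at WT class shares gave 110.5 CPM for Tgfb1, 17.2 CPM for Tgfb2 and 77.4 CPM for Inhba. They gave 225.6 CPM for Tgfbr2, 94.9 CPM for Ctgf and 559.6 CPM for Thbs1, so the reading depends on the direction of weighting. All of these are single values per library, with no test.

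Within classes, 133 of the 230 pairs of gene and class passed the filter on low counts and were tested. The adjusted p of edgeR's test was under 0.05 for 4 pairs higher in CCR2KO and for 0 pairs lower, against 0.0870% higher and 0.325% lower over all 194361 pairs of gene and class tested. At an unadjusted p under 0.05, 15 pairs were higher and 6 lower, and DESeq2 called 7 higher and 1 lower. All 4 calls were in fibroblasts: Thbs1 in the adventitial and in the alveolar fibroblast-like class, and Tgfbr2 and Ctgf in the adventitial fibroblast-like class. Tgfb1 was tested in all 23 classes and called in none of them. Its log2 changes within classes ran from -0.62 to 0.56, and its lowest adjusted p was 0.776.

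**Figure D3:**
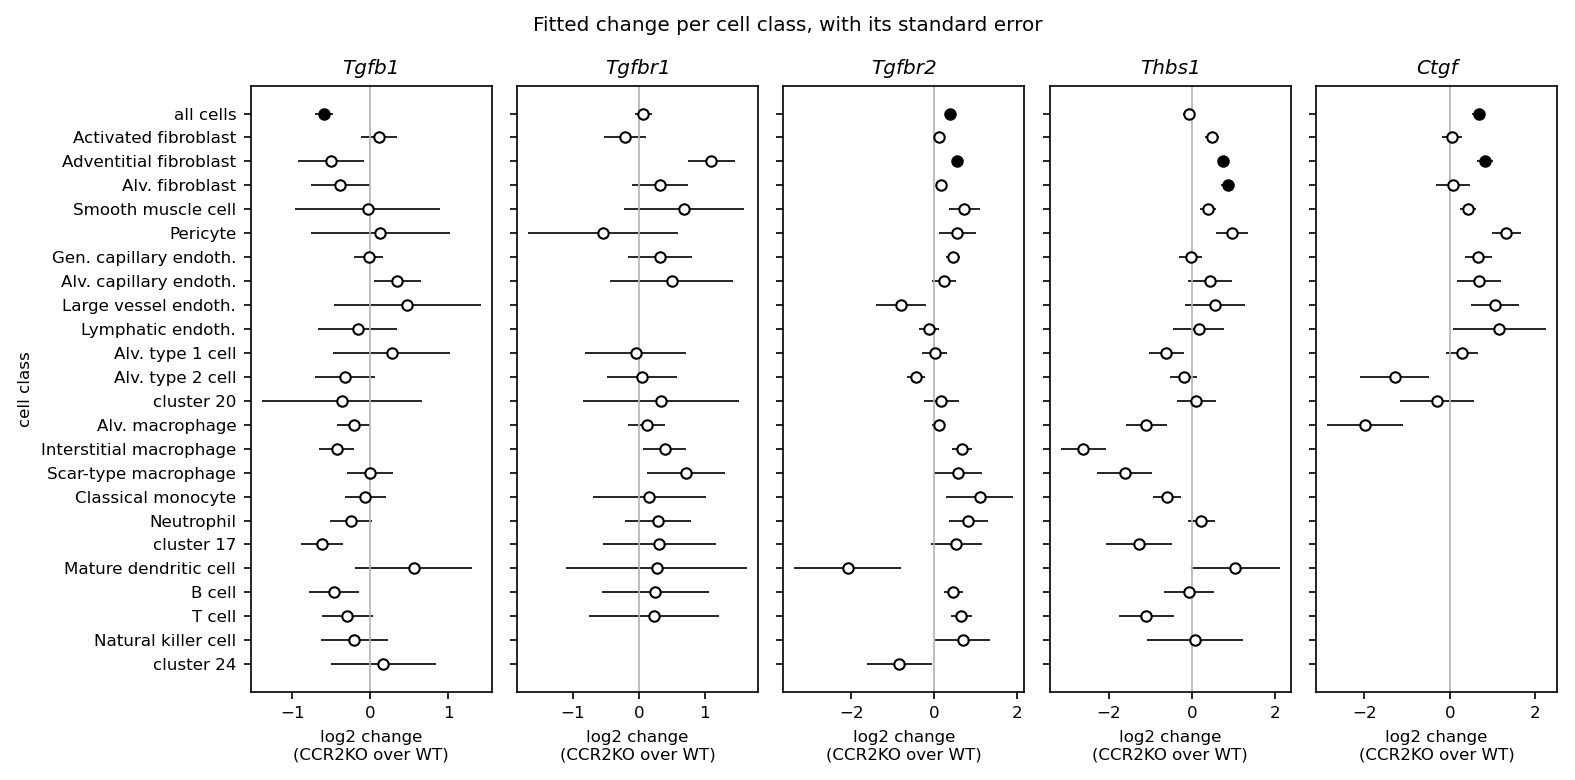
Log2 change, CCR2KO over WT, of each gene in each class where it was tested and over all cells; bars are SE, and filled points passed edgeR's test at an adjusted p of 0.05. Within classes the filled points are Thbs1 in 2 fibroblast classes and Tgfbr2 and Ctgf in the adventitial fibroblast-like class.

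In the adventitial fibroblast-like class, with 629 CCR2KO cells and 462 WT cells, Thbs1 had 1143, 1317, 959, 1536, 1419.5, 1569, 1409 and 1297 CPM in CCR2KO tags 1 to 8. In WT tags 1 to 9 it had 1032, 911, 1019.5, 631, 507, 621, 999, 625.4 and 779 CPM. All CCR2KO tags but tag 3 lay above every WT tag. The log2 change was 0.75 (SE 0.13), with an adjusted p of 0.00144 by edgeR. This class had 3 of its 9 tested genes of the axis higher, against 0.604% of its 10934 genes tested.

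Ctgf in the same class averaged 410 ± 113 CPM in CCR2KO and 230 ± 89.6 CPM in WT. Its lowest, median and highest tags were 279, 395 and 566 CPM in CCR2KO and 136, 212 and 445 CPM in WT. Apart from WT tag 3, all WT tags were below the lowest CCR2KO tag. The log2 change was 0.83 (SE 0.19) with an adjusted p of 0.0170 by edgeR, and without CCR2KO tag 4 it was 0.75 with an adjusted p of 0.0521. Tgfbr2 averaged 598 ± 99.5 CPM in CCR2KO and 405 ± 82.6 CPM in WT, with tags of 454, 607 and 783 CPM (lowest, median, highest) in CCR2KO and of 250, 399.5 and 538 CPM in WT. The ranges overlapped, and the log2 change was 0.56 (SE 0.13), with an adjusted p of 0.0174 by edgeR. Tgfbr1 had a log2 change of 1.10 there and did not pass by edgeR, and its adjusted p was 0.0313 by DESeq2.

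In the alveolar fibroblast-like class, with 1061 CCR2KO cells and 1025 WT cells, Thbs1 had 1328, 2087, 1060.2, 2101, 792, 1635, 1111 and 1349 CPM in CCR2KO tags 1 to 8. In WT tags 1 to 9 it had 644, 901, 1115, 769, 867, 745, 689, 578 and 788 CPM. CCR2KO tags 3, 5 and 7 fell within the WT range and the others lay above it. The log2 change was 0.86 (SE 0.16), with an adjusted p of 0.00579 by edgeR, and 1 of the 8 genes of the axis tested in this class was called higher, against 0.119% of 10913 genes. In the activated fibroblast-like class Thbs1 averaged 1264 ± 331 CPM in CCR2KO and 903 ± 272 CPM in WT, a log2 change of 0.48 (SE 0.17) that did not pass, with an adjusted p of 0.453 by edgeR.

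Marker lists of other cell types were read in the same fibroblast classes. In the adventitial fibroblast-like class, 4 of 9 tested alveolar fibroblast markers were higher in CCR2KO, with a median log2 change of 0.84, and the summed level of the 10 markers was 2182 to 3584 CPM in CCR2KO and 1468 to 2502 CPM in WT. The adventitial list itself had 0 of 11 markers called by edgeR, with a median of 0.16. Plasma cell markers summed to 414 to 947 CPM in CCR2KO and 194 to 409 CPM in WT, with 3 of 4 tested markers higher, and no marker of these lists was at 0 in either genotype. Of 6 tested classical monocyte markers, Hp (1.88) and Fn1 (0.64) were higher and Ly6c2 (-3.25), Chil3 (-1.82) and Plac8 (-0.46) lower, and the summed level of the 10 markers was 2580 to 3616 CPM in CCR2KO and 1997 to 2837 CPM in WT. The dissociation response list had 0 of 10 called and a median of 0.03. In the alveolar fibroblast-like class, 1 of 3 tested plasma cell markers was higher, and the fibroblast lists had no call. That marker, Igha, was not particular to fibroblasts. It was also called higher in interstitial macrophage-like (11.84), neutrophil-like (4.91), alveolar type 2 cell-like (4.34) and T cell-like cells (3.96), among other classes. The part of these cell markers in the results of Thbs1, Ctgf and Tgfbr2 was not tested. When clusters were drawn more coarsely, the adventitial fibroblast-like class held 580 cells, 53.2% of its cells at the finer setting, and there Thbs1 had a log2 change of 0.18 with an adjusted p of 0.959, while Ctgf and Tgfbr2 passed at 1.07 and 0.69.

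In the interstitial and scar-type macrophage-like classes Thbs1 ran the other way in value. In the interstitial macrophage-like class, with 285 CCR2KO cells and 492 WT cells, Thbs1 had 35.0, 89.9, 98.8, 45.9, 26.4, 109.6, 21.0 and 321 CPM in CCR2KO tags 1 to 8. In WT tags 1 to 9 it had 224, 225, 330.5, 794, 699.5, 815, 460.0, 645 and 903 CPM. CCR2KO tag 8, which had 14 cells of this class, was the sole CCR2KO tag in the WT range. The log2 change was -2.61 (SE 0.54), with an adjusted p of 0.0505 by edgeR, just outside the threshold. Without CCR2KO tag 8 it was -3.22 with an adjusted p of 0.00154, without WT tag 1 it was -2.71 with an adjusted p of 0.0436, and DESeq2 gave -2.53 with an adjusted p of 6.81e-05.

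In the scar-type macrophage-like class Thbs1 averaged 517 ± 492 CPM in CCR2KO and 1589 ± 1260.0 CPM in WT (SD, n = 7 and 9 tags), and did not pass, with an adjusted p of 0.682 by edgeR. WT tags 7, 8 and 9 stood at 3203, 3312 and 3202 CPM, above all other tags of either genotype. In the classical monocyte-like class the lowest, median and highest tags were 334, 2075 and 2942 CPM in CCR2KO and 1826, 2400.0 and 5393 CPM in WT, and Thbs1 did not pass there either, with an adjusted p of 0.522. Cell markers in these classes differed between the genotypes, in part through the deleted gene Ccr2. In the classical monocyte-like class 7 of 10 nonclassical monocyte markers were higher in CCR2KO, summing to 3978 to 8609 CPM in CCR2KO and 1264 to 2854 CPM in WT, and 3 of 10 classical monocyte markers, Ccr2 among them, were lower. In the interstitial macrophage-like class the classical monocyte markers summed to 591 to 2545 CPM in CCR2KO and 1268 to 3540.5 CPM in WT. Of these 10 markers 2 were lower, Ccr2 (-7.28) and Ms4a4c (-2.85). In the scar-type macrophage-like class the 10 markers summed to 1724 to 6211 CPM in CCR2KO and 2388 to 6875 CPM in WT. There too 2 were lower, Ccr2 (-4.92) and Plac8 (-1.63). The part of these cell markers in the Thbs1 values was not tested.

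**Figure D4:**
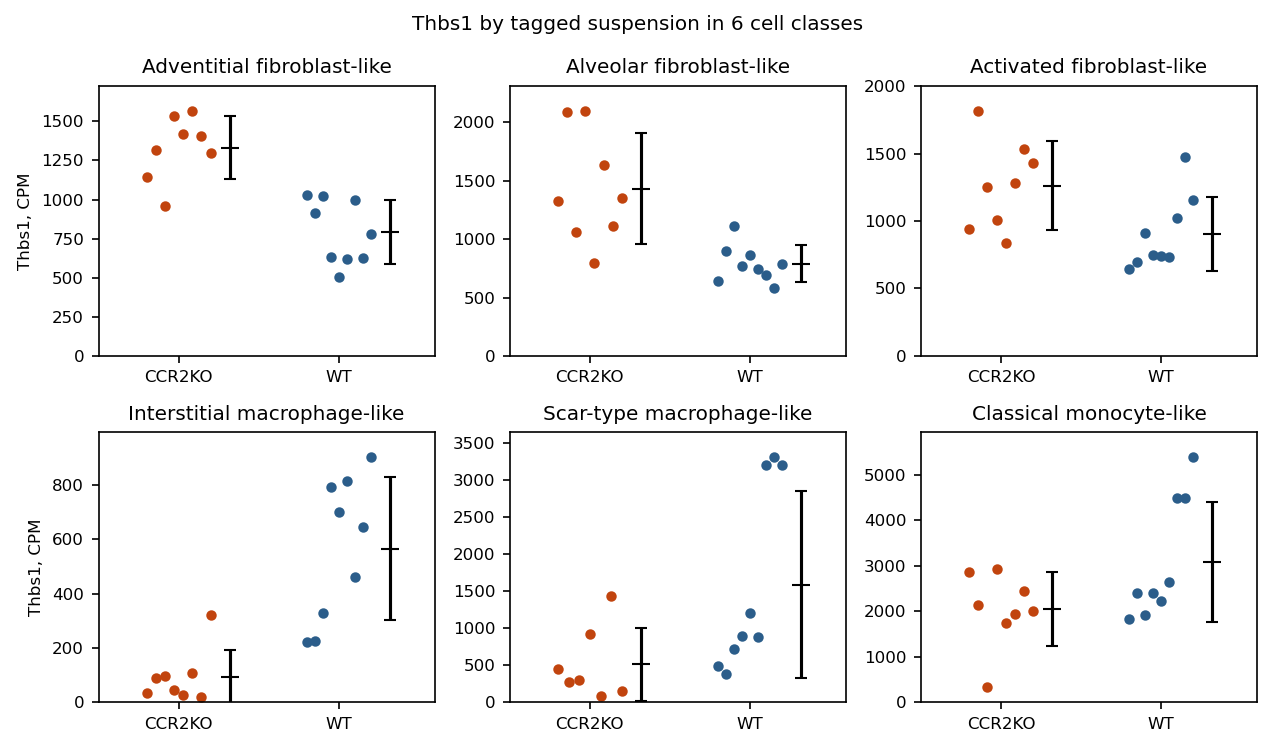
Thbs1 level in CPM by tag in 6 classes, with CCR2KO left of WT; points are tags and bars the mean and SD. CCR2KO tags are mostly above WT tags in the adventitial and alveolar fibroblast-like classes. They are below them in the interstitial macrophage-like class except for 1 tag at 321 CPM.

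A call in one class and none in another does not show that the classes differ, so the difference of the CCR2KO effect was tested between classes, for each called gene, between the class with the call and each other class. That class was chosen for its call. Of 75 such differences, 7 passed an exact two-sided permutation test over tags with adjustment over the 75, 6 of 41 for Thbs1 and 1 of 22 for Tgfbr2. For Ctgf 0 of 12 passed, and 2 had an unadjusted p under 0.05. Values are differences of log2(CPM + 1) changes, CCR2KO over WT.

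For Thbs1, the change in alveolar fibroblast-like cells exceeded that in interstitial macrophage-like cells by 3.76, with an exact p of 4.11e-05, the smallest that 8 tags against 9 can give, and an adjusted p of 0.00308. The same difference for adventitial fibroblast-like cells was 3.72, with an exact adjusted p of 0.00463. Against the classical monocyte-like class the differences were 1.5 for alveolar and 1.46 for adventitial fibroblast-like cells (adjusted p = 0.0177 for each, exact permutation). Against the scar-type macrophage-like class they were 2.62 and 2.53 (adjusted p = 0.0201 and 0.0290, exact permutation). Over all tags together, the Thbs1 change thus differed between these fibroblast classes and the monocyte and macrophage classes just named. The test took no account of tag number. In the scar-type macrophage-like class, tags 1 to 3 had medians of 296 CPM in CCR2KO and 492 CPM in WT. Tags 4 to 6 had 926.5 and 899 CPM, and the highest-numbered tags 149 CPM (1 CCR2KO tag) and 3203 CPM. In the classical monocyte-like class these medians were 2141 and 1932 CPM, 1946 and 2400 CPM, and 2232 and 4494 CPM. No Thbs1 difference from any other tested class passed. The adventitial call for Thbs1 was lost at the coarser resolution, where these differences were not run. For Tgfbr2, the change in adventitial fibroblast-like cells exceeded that in large vessel endothelium-like cells by 2.07, with an exact adjusted p of 0.0201.

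Because 1 cell may supply many of a gene's reads, the share of cells with at least 1 read was compared after thinning every cell to 5000 reads. That left out 173 CCR2KO cells and 0 WT cells as too shallow. Of 151 pairs of gene and class with a mean share of at least 1%, 0 were called higher and 6 lower in CCR2KO by an exact permutation test over tags, adjusted over all genes of the class. Over all genes and classes, 0.0377% of 220018 pairs were called higher and 1.53% lower. At an unadjusted p under 0.05, 4 pairs were higher and 17 lower. The mean share was lower in CCR2KO for 103 of the 151 pairs, and CCR2KO cells also had fewer detected genes at this depth; the part of that in the shares was not tested.

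Tgfb1 had 3 of the 6 calls. In B cell-like cells 9.42 ± 2.87% of CCR2KO cells and 17.01 ± 2.48% of WT cells had a Tgfb1 read (SD, n = 8 and 9 tags), with an exact adjusted p of 0.0187, in a class where 1.53% of all genes were called lower. Without thinning the shares were 11.9% in CCR2KO and 19.1% in WT. In classical monocyte-like cells the Tgfb1 share was 28.5 ± 7.64% in CCR2KO and 37.9 ± 4.61% in WT (exact adjusted p = 0.0267; 32.1% in CCR2KO and 49.3% in WT without thinning). In general capillary endothelium-like cells it was 5.17 ± 0.462% in CCR2KO and 7.77 ± 1.98% in WT (exact adjusted p = 0.0145; 6.95% in CCR2KO and 11.4% in WT without thinning). The share of all genes called lower was 13.2% in the classical monocyte-like class and 13.4% in the general capillary class.

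Thbs1 had 2 calls. In scar-type macrophage-like cells its share was 20.3 ± 10.2% in CCR2KO and 51.5 ± 15.4% in WT, with an exact adjusted p of 0.0283, in a class where 6.60% of all genes were called lower. Unthinned, the shares were 28.8% in CCR2KO and 65.7% in WT. In classical monocyte-like cells it was 46.5 ± 13.2% in CCR2KO and 69.0 ± 12.5% in WT, with an exact adjusted p of 0.0338 (50.0% in CCR2KO and 75.02% in WT unthinned). In interstitial macrophage-like cells it was 7.74 ± 4.13% in CCR2KO and 38.9 ± 12.2% in WT, with an exact p of 0.000123 and an adjusted p of 0.0638, which did not pass (28.7% in CCR2KO and 60.3% in WT unthinned). Free RNA gives reads in cells that do not express a gene, and in T cell-like cells, which served as background, the Thbs1 share was 4.42 ± 3.41% in CCR2KO and 7.12 ± 2.57% in WT. The CCR2KO interstitial macrophage-like share was thus close to that background, and the WT share was above it.

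Inhba in classical monocyte-like cells had the remaining call, with shares of 1.39 ± 2.71% in CCR2KO and 4.96 ± 1.71% in WT (exact adjusted p = 0.0431; 3.40% in CCR2KO and 8.41% in WT without thinning). Its CCR2KO reads there came from 6 of 183 cells, against 99 of 1156 cells in WT. Itgb6 in alveolar type 1 cell-like cells had shares of 24.3 ± 5.04% in CCR2KO and 39.1 ± 11.1% in WT and did not pass, with an exact p of 0.00230 and an adjusted p of 0.477. In the fibroblast classes the shares of Thbs1 were higher in CCR2KO in value, 51.2 ± 9.84% against 39.8 ± 4.61% in WT in the alveolar and 58.1 ± 5.65% against 49.9 ± 9.06% in WT in the adventitial class, and neither passed (exact adjusted p = 0.153 and 0.328).

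Tags were also read in blocks of consecutive numbers, as a description with no test, since no source used here ties a number to a day. Inhba over all cells had 39.0 to 64.8 CPM in CCR2KO tags 1 to 3, 42.0 to 90.6 CPM in tags 4 to 6, and 14.4 to 18.6 CPM in tags 7 and 8. In WT it had 84.5 to 135 CPM in tags 1 to 3, 70.2 to 94.1 CPM in tags 4 to 6, and 17.8 to 34.2 CPM in tags 7 to 9. The tags with the highest numbers were thus the lowest for Inhba in both genotypes.

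Fst over all cells had a different pattern in each genotype. In CCR2KO it had 25.4 to 46.2 CPM in tags 1 to 3, 128 to 154 CPM in tags 4 to 6, and 55.0 to 78.8 CPM in tags 7 and 8. In WT it had 17.2 to 28.3 CPM in tags 1 to 3, 43.0 to 45.4 CPM in tags 4 to 6, and 62.9 to 94.9 CPM in tags 7 to 9. In the activated fibroblast-like class, which held most Fst reads, CCR2KO tags 4 to 6 had 538 to 610.1 CPM and WT tags 4 to 6 had 212 to 259 CPM, while tags 1 to 3 had 99.2 to 270.3 CPM in CCR2KO and 186 to 291 CPM in WT. CCR2KO and WT were thus apart in value in the middle block and not in the first.

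Neutrophil-like Inhba and Thbs1 both had their highest block median in the first block of CCR2KO. Thbs1 there had 3691 to 5534 CPM in CCR2KO tags 1 to 3, 1099 to 1330.3 CPM in tags 4 to 6 and 992 to 1343 CPM in tags 7 and 8. In WT it had 2264 to 3024 CPM in tags 1 to 3, 1400.5 to 2780.1 CPM in tags 4 to 6 and 1142 to 1878 CPM in tags 7 to 9. Inhba in the same class had medians of 1232, 591 and 177 CPM over the 3 blocks in CCR2KO, and of 339.5, 339.7 and 120.5 CPM in WT. Its CCR2KO tags overlapped between blocks, at 330.5 to 1539.3 CPM in tags 1 to 3 and 396.4 to 749.8 CPM in tags 4 to 6. Scar-type macrophage-like Thbs1 had block medians of 296, 926.5 and 149 CPM in CCR2KO, the last from 1 tag, and of 492, 899 and 3203 CPM in WT.

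For each gene, the genes most like it in level over the 23 classes were found among 8146 genes by Pearson's r of the mean log2(CPM + 1), a description in which the classes share libraries. Itgb6 was most like Akap5 (r = 0.970), Phgr1 (0.968) and Col4a3 (0.959), and Tgfb3 most like Osr1 (0.952), Khdrbs3 (0.942) and Vldlr (0.926). Fst was most like Cd248 (0.945), Wisp1 (0.925) and Mark1 (0.925). Tgfb2 and Ctgf were each among the 3 genes most like the other (r = 0.926), beside Hspg2 and Tead1 for Tgfb2 and Pam and Fhl1 for Ctgf. Tgfb1 was nearest to Ptbp3, Crlf2 and Capza1, Tgfbr1 to Atp6ap2, Tmem251 and Cpeb2, and Tgfbr2 to Sh3gl1, Srpk2 and Tspan5. Inhba was nearest to Sgms2 (0.833), Slc11a1 (0.820) and Tarm1 (0.817), and Thbs1 to Tnfaip6 (0.817), Tmem38b (0.804) and C3 (0.801).

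Other genes of the pathway were read from 6 lists. Over all cells, where 4.94% of all genes were called higher and 6.49% lower, 5 of the 21 genes for latency and activation were higher and 1 was lower, with a list median of 0.21, against 0.01 over all genes. Ltbp3, the gene of a latent TGF-beta binding protein, rose (log2 0.69), as did Mmp2, a matrix protease gene, at 0.58 and the fibrillin gene Fbn1 at 0.56, and the transglutaminase gene Tgm2 fell (-0.45). Of 12 extracellular inhibitors 3 were higher and 0 lower: Vasn, the gene of the TGF-beta binding protein vasorin, at 0.50, Dcn, the gene of the proteoglycan decorin, at 0.56, and Lefty1, a Nodal antagonist gene, at 0.73. Of 12 receptors and co-receptors 2 were higher, Bmpr1a and Acvr1, and Acvr1c was lower at -1.38. Of 26 target genes 5 were higher and 3 lower. The cell cycle inhibitor gene Cdkn1a fell (-0.69), as did Tgfbi, a matrix protein gene (-0.77), and the collagen gene Col3a1 (0.40) and the smooth muscle actin gene Acta2 (0.61) rose. Gdf3 was the one of 8 tested other ligands that was called, at -2.69, and of 17 intracellular mediators and inhibitors 3 were higher, Wwtr1, Smurf1 and Trim33.

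Markers of mesenchymal cells moved in the same sums, and so did markers of other cells. Alveolar type 2 cell markers summed to 20585 to 41217 CPM in CCR2KO and 12555 to 23133 CPM in WT. Plasma cell markers summed to 1075 to 9339 CPM in CCR2KO and 298 to 567 CPM in WT. Mesothelial cell markers summed to 104 to 334 CPM in CCR2KO and 57.2 to 206 CPM in WT. Pan endothelium markers ran the other way in value, at 1061 to 1633 CPM in CCR2KO and 1271 to 1960 CPM in WT. Over all cells 4 of 11 adventitial fibroblast markers, 3 of 11 activated fibroblast markers, 3 of 5 pan fibroblast markers and 1 of 7 smooth muscle cell markers were higher and 0 of them lower. Dcn is itself in the adventitial list, Col3a1 in the pan fibroblast list and Acta2 in the smooth muscle list. The pan fibroblast markers summed to 13453 to 17916 CPM in CCR2KO and 8171 to 14839.5 CPM in WT, the activated fibroblast markers to 6562 to 14232 CPM in CCR2KO and 4880 to 11012 CPM in WT, and the smooth muscle cell markers to 680.1 to 1226 CPM in CCR2KO and 330 to 856 CPM in WT. Of 10 classical monocyte markers 6 were lower over all cells, the deleted gene Ccr2 among them, and 1 was higher. The part of these cells in the changes over all cells was not tested.

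Within classes few of these genes moved. In the adventitial fibroblast-like class Ltbp3 rose (0.83, SE 0.18) and Adamts1, a matrix protease gene, fell (-0.51, SE 0.12) among 18 tested latency and activation genes, and Fn1, the fibronectin gene, rose (0.64, SE 0.15) among 24 tested targets, while the median of the target list was -0.08. The adjusted p of edgeR's test was 0.0104 for Ltbp3, 0.0238 for Adamts1 and 0.0186 for Fn1, in a class where 0.604% of all genes were called higher and 1.05% lower. In the interstitial macrophage-like class, chosen after its values were seen, Cdkn1a fell (-1.07, SE 0.18) among 20 tested targets, whose median was -0.63, in a class with 0.238% of all genes called lower. In the classical monocyte-like class, where nonclassical monocyte markers were higher as given above, Tgfbr3, the gene of the co-receptor betaglycan, rose (3.51, SE 1.01), with an adjusted p of 0.0424 by edgeR and 0.436% of 8024 genes called higher. In the alveolar fibroblast-like class 0 of 72 genes of these lists passed edgeR's adjusted test, with 8 higher and 3 lower at an unadjusted p under 0.05, and in the activated fibroblast-like class 0 of 85 passed, with 6 higher and 2 lower at an unadjusted p under 0.05.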

How the data were processed

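The authors deposited raw counts per gene and cell, with no scaling. GRCm38, R 3.6.3, Bowtie2 2.4.2 and cutadapt 2.10 are named in the submitters' processing notes; the counting rule, annotation, strand setting and handling of molecular identifiers are not given in the sources used here, so intervals over reads are not given. Column names give a tag or mark a doublet. For CCR2KO, 15955 columns had a tag, 531 were named doublet and 2 were neither. For WT, 17854 had a tag and 680 were named doublet. Columns without a tag were not used. Genes listed in 1 of the tables alone counted as 0 in the other.

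Cells were kept from 200 detected genes up and to a mitochondrial share of 25%. The automatic threshold of Scrublet called 0 CCR2KO cells and 415 WT cells, so in each library the 2.5% of cells with the highest doublet score were left out instead (380 CCR2KO and 431 WT cells), a rule chosen after the data were seen. Scanpy 1.11.5 and leidenalg 0.10.2 clustered both libraries together (2000 variable genes, 40 principal components, 20 neighbours, resolution 1.5) into 31 clusters. A name needed at least 3 markers among the 100 leading genes and 1.5 times as many as the next type, from 39 lists of 324 markers, of which 2 were not in the tables; it gives likeness, not identity. Clusters 17, 20 and 24 stayed unnamed, and cluster 26 was set aside as mixed.

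Reads were summed per class and tag (at least 10 cells a tag, 3 tags a genotype) and tested with edgeR 4.0.16 in R 4.3.3, CCR2KO over WT, with filterByExpr, TMM factors and Benjamini-Hochberg adjustment over all genes tested in the class at 0.05. CPM, computed from the deposited counts, use TMM-adjusted totals, except for Ccr2 and the pooled, weighted levels. Shares of cells with a read were tested by exact permutation over tags with adjustment over all genes of the class, not over the 10 genes alone as first planned. Effect differences used log2(CPM + 1). The steps were tested on simulated data. DESeq2 1.42.0, plain totals, no filter, reads capped at 10 per cell, a coarser resolution (0.8), a block for tag number, other thinning, a pseudocount of 10 CPM and leaving out each tag were alternatives. The genes and lists were chosen with earlier results of these data known. All 10 genes are reported. From each list, up to 4 called genes were to be named per class, by lowest adjusted p, in classes with a called gene of the axis or most of a gene's reads, and the same was done over all cells. The 3 genes most alike were named among those reaching 50 CPM in a class.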

Additional observations from a re-analysis of the deposited data

Results flagged for a closer look

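A single tag stood apart from the rest of its genotype in 3 of the 32 sets of tags examined by Dixon's test, where chance gives about 1 in 20 sets. Ctgf in the adventitial fibroblast-like class had 444.7 CPM in WT tag 3, with the nearest WT tag at 275.5 CPM. Thbs1 in the interstitial macrophage-like class had 320.8 CPM in CCR2KO tag 8, with the nearest CCR2KO tag at 109.6 CPM. Inhba in the scar-type macrophage-like class had 1527.1 CPM in CCR2KO tag 4, with the nearest CCR2KO tag at 571.2 CPM.

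The CCR2KO over WT log2 change differed between 2 classes in 7 comparisons by the exact permutation test. For Thbs1 the adventitial fibroblast-like class exceeded the interstitial macrophage-like class by 3.72, the scar-type macrophage-like class by 2.53 and the classical monocyte-like class by 1.46. The alveolar fibroblast-like class exceeded the same classes by 3.76, 2.62 and 1.5. For Tgfbr2 the adventitial fibroblast-like class exceeded the large vessel endothelium-like class by 2.07. The cause of these differences was not tested.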

How the results depend on the processing

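No value turned round in sign under the alternatives that gave one. The coarser resolution has no interstitial or scar-type macrophage-like class, since 99.4% and 92.9% of their cells joined 1 unnamed cluster, so Thbs1 in these classes has no value there, and shares and effect differences were not run at that resolution. Within classes, the 4 higher and 0 lower calls of edgeR became 7 and 1 with DESeq2, which added Tgfbr1 in adventitial fibroblast-like cells and Fst in interstitial macrophage-like and neutrophil-like cells as higher. Those Fst calls rest on few reads. Neutrophil-like cells had 178 Fst reads in 11 CCR2KO cells and 4 in 3 WT cells. Interstitial macrophage-like cells had 136 in 18 CCR2KO cells and 73 in 14 WT cells. Leaving out each tag gave 3 to 4 higher and 0 to 1 lower calls. Capping reads at 10 per cell and gene gave 1 lower call, Thbs1 in interstitial macrophage-like cells (-1.87, adjusted p = 3.01e-07). Over all cells, leaving out each tag gave 2 to 3 higher calls and 1 lower call in every case. Calls lost when reads were capped, a tag was left out or clusters were coarser are named beside the results, and their cause was not tested. Same-numbered tags were not taken as pairs: over all cells 6 of 8 numbers correlated above 0.1 between the genotypes, and in both fibroblast classes with calls 0 of 8 did. With tag number as a replicate block, which leaves out WT tag 9, 2 lower calls appeared within classes (Thbs1 in interstitial macrophage-like cells at -2.83 and Inhba in classical monocyte-like cells at -4.26), Tgfbr2 in adventitial fibroblast-like cells no longer passed (0.57, adjusted p = 0.0791), and over all cells there were 2 lower calls, with Inhba (-0.70, adjusted p = 0.0176) added, and Fst rose (0.88, adjusted p = 0.0264). The 6 lower shares of cells became 11 without thinning and 3 to 7 when tags were left out, lowest without CCR2KO tag 5. The 7 effect differences became 11 with a pseudocount of 10 CPM. The few cells of some classes limit depth, such as 183 classical monocyte-like CCR2KO cells, where a change missed by the test is not shown to be absent.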
